A study of Homo sapiens with 48 samples.

Results

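The samples labelled tCNT were THP-1 macrophages given a carbon nanomaterial whose name the labels do not spell out, for 6 h or 24 h, and they were set against the medium controls of the same time. Samples were chosen by their titles alone: 3 tCNT samples and 6 controls at each time, 18 of the 48 samples of the series. The exposed cells received 100 µg of material in 1 ml of fresh RPMI medium, and the controls RPMI medium. All 18 samples, controls included, came from THP-1 cells, an established human monocytic leukaemia line, made macrophage-like with the phorbol ester PMA. The series holds 6 such materials, and RNA was labelled with 3 dyes and measured on microarrays as log2 values. Each tCNT group had 1 sample per dye and each control group 2 per dye. Nothing in the labels says that samples of a group came from separate cultures, so the p-values measure only the spread between these samples, which may be technical. A leukaemia line differentiated by a phorbol ester also limits how far the cells stand for macrophages.

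Macrophages that take up particles can answer with a fast programme of inflammatory transcription. NF-kB dimers held in the cytoplasm by IkB proteins are released into the nucleus and switch on cytokines, CXC chemokines, enzymes such as the prostaglandin synthase PTGS2, and their own inhibitors, which end the response. AP-1 and other immediate early factors act beside them, and the programme is usually transient. The comparison asks which transcripts differed from medium controls after exposure, at each time and at both, and whether any stood in opposite directions at the 2 times.

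The columns of the deposited table went against their labels in a measurable way. Smooth marks across the array surface were measured in every sample and matched between samples. The best match of these marks stood 20 or 40 columns apart in the table for 17 of the 18 samples, and in 0 of the 17 samples with a partner on the labelled array was it that partner. The most similar sample in gene values was 20 or 40 columns away for 11 of the 18 samples, 5 of the 6 tCNT samples among them, and for 0 of the 18 was it a sample of the same group. Deviations from each gene's mean correlated across genes at -0.158 on average among the 3 tCNT samples of 6 h and at -0.333 among those of 24 h, against 0.626 for the 36 pairs of columns 20 or 40 apart. Among the controls the mean was -0.005 at 6 h and 0.204 at 24 h, where single pairs reached 0.556. Groups below are therefore samples so labelled, and no sample was reassigned. Macrophage markers averaged 12.66 to 13.76 on the log2 scale in the tCNT samples and 12.86 to 13.51 in the controls, with CD68, a lysosomal glycoprotein, between 12.08 and 15.26. The mean of the fibroblast and epithelial markers lay between 7.13 and 7.52 in all tCNT samples and between 7.20 and 7.46 in the controls. EPCAM and COL1A1, which define epithelial cells and fibroblasts, were at 6.50 to 7.06 in all 18 samples, near the low end of the scale at 6.05. Of the 11 measured members of that list, 8 had a mean under 8, and the other 3 had a mean of 8 or more.

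No transcript passed the test in any comparison of tCNT. By limma with dye as a term and Benjamini-Hochberg adjustment, 0 of 20399 genes (0% called) had an adjusted p under 0.05 at 6 h, at 24 h, over both times pooled, or in the difference between the times. The lowest adjusted p was 0.404 at 6 h, 1 at 24 h, 0.781 pooled and 1 for the difference. An unadjusted p under 0.05 was reached by 1279 genes (6.27%) at 6 h, 447 (2.19%) at 24 h, 1244 (6.10%) pooled and 606 (2.97%) in the difference. All 3 tCNT samples lay above all 6 controls for 276 genes (1.35%) at 6 h and 349 (1.71%) at 24 h, and below them for 157 (0.770%) and 156 (0.765%). Log2 fold changes had a median SE of 0.262 at either time. In data simulated with the same groups and dyes, 24% of 1.5-fold, 54% of 2-fold and 94% of 4-fold differences at 6 h were recovered. Simulated samples were independent and rightly labelled, whereas real columns 20 or 40 apart correlated at 0.626 on average. These shares therefore do not give the sensitivity of the real comparison. Everything that follows gives values of transcripts and gene groups that did not pass the adjusted test.

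The members of both NF-kB pathway lists lay mostly above the controls at 6 h and mostly below them at 24 h, without passing the test. Their promoters are shown because NF-kB induces several of its own inhibitors through them. The 300 bases around the start of each gene, most of them before it, were taken from RefSeq (GRCh38.p14) and searched on both strands for 2 spellings of the kB element bound by NF-kB, GGG and any 2 bases followed by TTTCC or by TTCCC. No run of bases can fit both spellings in the same position, though neighbouring matches may overlap. Of 31 measured members of the 2 NF-kB lists, 27 had a promoter in the RefSeq table and 8 of these (29.6%) held a match, against 1364 of all 35116 promoters (3.88%). A match describes the letters, not a bound site. The 4 promoters printed belong to the inhibitors NFKBIA and TNFAIP3, the IkB-like NFKBIZ and the subunit REL, and show the matches in capitals. NFKBIA lies at chr14:35404700-35404999 (minus strand), TNFAIP3 at chr6:137867009-137867308 (plus strand), NFKBIZ at chr3:101827740-101828039 (plus strand) and REL at chr2:60881324-60881623 (plus strand). TNFAIP3 holds 2 matches, the others 1 each, and in NFKBIA, TNFAIP3 and REL they read as the reverse complement.
NFKBIA: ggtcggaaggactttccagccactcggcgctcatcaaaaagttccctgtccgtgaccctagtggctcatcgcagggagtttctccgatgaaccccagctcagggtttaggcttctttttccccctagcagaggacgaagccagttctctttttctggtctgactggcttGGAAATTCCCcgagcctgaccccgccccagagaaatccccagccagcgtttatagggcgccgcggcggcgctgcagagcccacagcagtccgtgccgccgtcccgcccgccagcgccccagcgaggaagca
TNFAIP3: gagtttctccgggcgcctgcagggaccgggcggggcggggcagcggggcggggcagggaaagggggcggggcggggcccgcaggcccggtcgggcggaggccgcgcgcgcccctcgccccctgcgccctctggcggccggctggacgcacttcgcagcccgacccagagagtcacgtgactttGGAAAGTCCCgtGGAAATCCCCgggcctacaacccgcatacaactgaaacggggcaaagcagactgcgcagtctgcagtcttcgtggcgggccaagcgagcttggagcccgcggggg
NFKBIZ: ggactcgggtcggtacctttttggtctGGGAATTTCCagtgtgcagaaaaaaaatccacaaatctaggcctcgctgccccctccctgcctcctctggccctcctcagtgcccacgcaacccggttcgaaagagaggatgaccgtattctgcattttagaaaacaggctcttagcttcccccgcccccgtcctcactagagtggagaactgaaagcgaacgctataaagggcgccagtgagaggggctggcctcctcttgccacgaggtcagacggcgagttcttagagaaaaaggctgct
REL: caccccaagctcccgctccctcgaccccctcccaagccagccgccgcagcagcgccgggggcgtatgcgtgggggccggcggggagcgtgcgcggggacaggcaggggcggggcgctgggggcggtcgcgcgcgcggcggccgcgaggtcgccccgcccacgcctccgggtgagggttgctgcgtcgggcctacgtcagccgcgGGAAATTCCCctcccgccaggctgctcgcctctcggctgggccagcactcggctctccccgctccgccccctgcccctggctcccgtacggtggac

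Among the feedback inhibitors and subunits, 15 of 16 members had a fold change above 0 at 6 h, where 50.3% of all genes did, and the median log2 fold change was 0.62 against 0.002 over all genes. At 24 h, 5 of 16 were above 0, where 54.2% of all genes were, and the median was -0.19 against 0.022. The direction was above 0 at 6 h and below at 24 h for 11 of the 16, a pattern shared by 20.0% of all genes. An unadjusted p under 0.05 was reached by BCL3 and REL at 6 h, both higher (3.86% of all genes), and by CHUK and NFKBIZ at 24 h, both lower (0.559%). None had an adjusted p under 0.05.

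NFKBIA, the IkB-alpha inhibitor and the standard readout of NF-kB activity, had log2 values of 14.63, 15.91 and 15.59 in the 3 tCNT samples of 6 h, against a lowest, median and highest control of 13.55, 14.98 and 15.97. At 24 h its tCNT values were 15.16, 13.12 and 15.24, against 14.89, 15.56 and 15.94 in the controls. The groups overlapped at both times, and replicate 2 was the highest tCNT sample at 6 h and the lowest at 24 h. TNFAIP3 (A20), the deubiquitinase that ends NF-kB signalling, showed the same order of replicates. Its tCNT values were 12.27, 12.90 and 12.81 at 6 h and 11.25, 10.46 and 12.75 at 24 h, and its log2 fold changes were 0.85 ± 0.45 (SE) and -0.78 ± 0.45. The difference between its 2 fold changes was -1.64 ± 0.63 with an unadjusted p of 0.0141 and an adjusted p of 1 by limma.

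BCL3, an IkB-like protein that works with p50 and p52 in the nucleus, stood at 12.26, 13.18 and 12.37 after 6 h of tCNT, against 10.11, 10.94 and 13.29 as the lowest, median and highest control. Its log2 fold change was 1.37 ± 0.63, with an adjusted p of 0.775 by limma. A single control, replicate 4, was above all 3 tCNT samples, and the other controls were below them. REL, the c-Rel subunit, was at 11.93, 12.09 and 11.57 against 9.82, 11.31 and 11.92, a log2 fold change of 0.87 ± 0.37. NFKBIZ, the nuclear IkB-zeta needed for a subset of secondary response genes, was below every control in all 3 tCNT samples at 24 h. Its values were 7.14, 8.96 and 8.83 against 9.46, 10.04 and 10.46, a log2 fold change of -1.68 ± 0.69 with an adjusted p of 1 by limma. CHUK, the IKK-alpha kinase, was also below every control at 24 h, with 11.72, 11.67 and 11.25 against 11.84, 12.02 and 12.34. RELA and IKBKG, the p65 subunit and the IKK scaffold, did not follow the pattern and had fold changes above 0 at both times, 0.81 and 0.65 for RELA and 0.84 and 0.77 for IKBKG.

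The effector targets of NF-kB followed the same order. All 15 measured members were above 0 at 6 h, where 50.3% of all genes were, with a median log2 fold change of 0.66. At 24 h 2 of 15 were above 0, where 54.2% of all genes were, with a median of -0.42. For 13 of 15 the sign turned from above to below 0, as it did for 20.0% of all genes. The list mean of the tCNT samples was 12.05, 13.03 and 12.08 at 6 h, against a lowest, median and highest control of 10.51, 11.33 and 12.76. At 24 h it was 11.52, 10.67 and 12.38, against 11.65, 12.30 and 12.57. All 3 tCNT samples were above 4 of the 6 controls at 6 h, and at 24 h 2 of the 3 were below every control. Of the single members, 1 had all tCNT samples above all controls at 6 h, as 1.35% of all genes did. At 24 h 1 had them below all controls, as 0.765% of all genes did.

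TNFAIP2, a TNF-induced membrane-remodelling protein, was the 1 effector with every tCNT sample above every control at 6 h. Its values were 11.78, 12.04 and 10.64 against 8.94, 9.77 and 10.53, a log2 fold change of 1.66 ± 0.54 with an unadjusted p of 0.00382 and an adjusted p of 0.648 by limma. At 24 h its fold change was 0.13 ± 0.54, on the same side as at 6 h. TRAF1, an adaptor of TNF receptors, was at 9.89, 9.79 and 9.29 after 6 h, against 6.85, 8.03 and 9.76, with a log2 fold change of 1.47 ± 0.70. TNFAIP6, the hyaluronan-binding protein TSG-6, had the highest fold change of the list at 6 h, 1.91 ± 1.16. Its tCNT values of 11.86, 13.52 and 12.28 lay inside the controls' range of 9.05 to 13.89.

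PTGS2, the inducible cyclooxygenase, showed how unequal the replicates were. Its tCNT values were 8.76, 14.37 and 10.56 at 6 h, against 8.16, 8.75 and 13.65, and 9.51, 7.34 and 9.81 at 24 h, against 9.01, 9.93 and 11.28. At 6 h replicate 2 was above every control, replicate 3 above all but control replicate 4 and replicate 1 near the control median, and at 24 h replicate 2 alone was below every control. The log2 fold change at 6 h was 1.67 ± 1.14 with all samples and 0.01 without that replicate. ICAM1, the leukocyte adhesion receptor, was more even, with 12.66, 12.73 and 12.24 at 6 h against 10.74, 11.12 and 12.62. PLAUR, the urokinase receptor, and TNFAIP8, a regulator of apoptosis, had the lowest fold changes of the list at 24 h, -1.65 ± 1.12 and -1.67 ± 1.01.

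**Figure D1:**
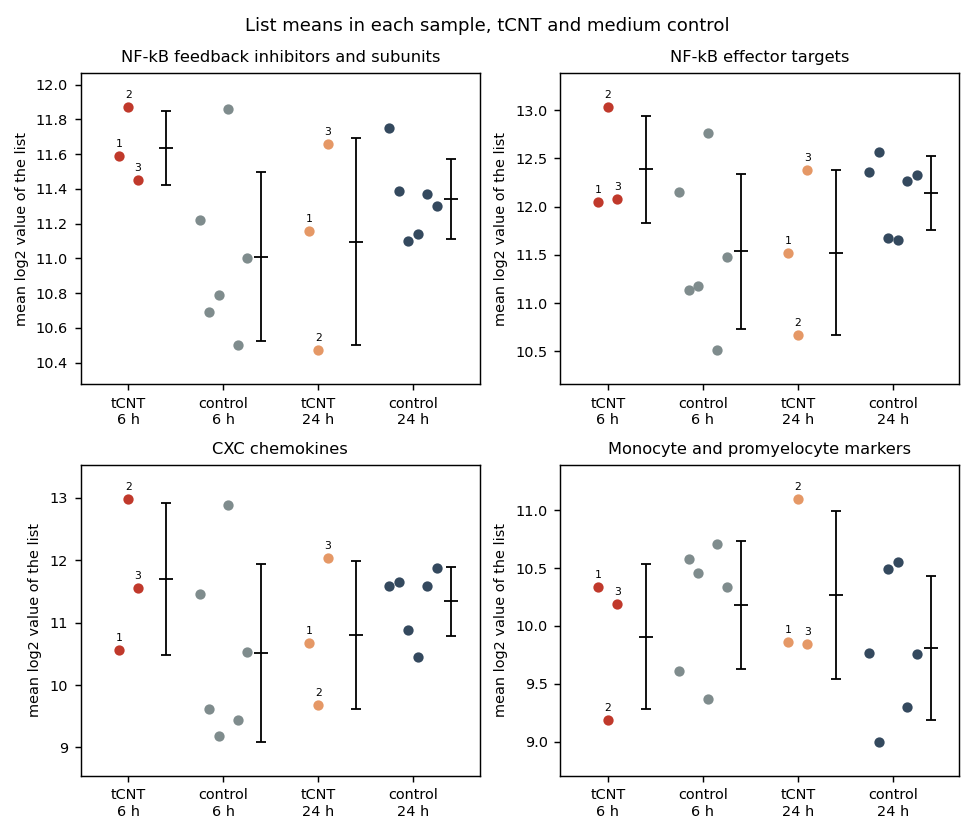
Mean log2 value (vertical axis) of 4 gene lists in each sample, by group (horizontal axis); numbers beside the tCNT points are replicates, and bars give the group mean ± SD (n = 3 tCNT, n = 6 control). Replicate 2 of tCNT was at one end of its group in every panel, and control 6 h replicate 4 reached 12.76 in the NF-kB effector list, near the 13.03 of the highest tCNT sample.

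CXC chemokines, the neutrophil attractants of this programme, had the largest list median at 6 h, 1.33, with 7 of 8 members above 0, and a median of -0.55 at 24 h, with 0 of 8 above 0. CXCL3 was at 12.04, 15.51 and 14.47 in the tCNT samples of 6 h, against 9.09, 11.06 and 15.97 in the controls, a log2 fold change of 2.38 ± 1.43. CXCL6 had 9.08, 12.08 and 10.63 against 7.07, 8.24 and 11.80, and a fold change of 1.71 ± 0.86. Groups overlapped for both, and none of the 8 had an unadjusted p under 0.05 at either time. CXCL8, the main human neutrophil chemokine, was at 12.51, 15.62 and 14.69 against 9.91, 13.21 and 15.98 at 6 h. It and 3 other members came close to the top of the scale at 16.00 in at least 1 sample, where differences are compressed.

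Of the TNF and IL6-type cytokines, 9 of 12 measured members were above 0 at 6 h with a median of 0.64, and 4 of 12 at 24 h with a median of -0.27. TNF, the ligand that starts the pathway, was at 9.99, 13.44 and 10.84 at 6 h against 7.24, 8.86 and 13.24, a log2 fold change of 1.93 ± 1.05. IL10, the cytokine that restrains macrophage activation, was at 10.73, 9.68 and 7.42 against 7.09, 7.71 and 9.35, a fold change of 1.35 ± 0.56 with an unadjusted p of 0.0223. For IL10 it was replicates 1 and 2 that stood above every control, and replicate 3 within their range. IL6 was above the control median only in replicates 2 and 3, at 10.80 and 7.94, with replicate 1 at 7.47. The interleukin-1 family had medians of 0.43 and -0.30, with 7 of 8 and 2 of 8 members above 0. Leaving out replicate 2 of each time gave medians of 0.03 and 0.15.

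AP-1 and early genes gave 18 of 23 members above 0 at 6 h, with a median of 0.45, and 6 of 23 at 24 h, with a median of -0.45. NR4A3, an orphan nuclear receptor induced within the first hours of activation, had 11.39, 11.33 and 9.72 after 6 h of tCNT, against 8.11, 9.15 and 11.08. At 24 h it was at 9.01, 7.89 and 8.58, below all controls, which spanned 9.11 to 9.93. Its log2 fold changes were 1.59 ± 0.60 and -1.08 ± 0.60, and their difference of -2.67 ± 0.84 had an unadjusted p of 0.0033 and an adjusted p of 1 by limma. It was the list gene with the lowest p of that difference among the NF-kB, cytokine, chemokine and early gene lists. EGR1, a zinc finger factor of the same class, differed by 0.01 ± 1.20 at 6 h and -1.75 ± 1.20 at 24 h.

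**Figure D2:**
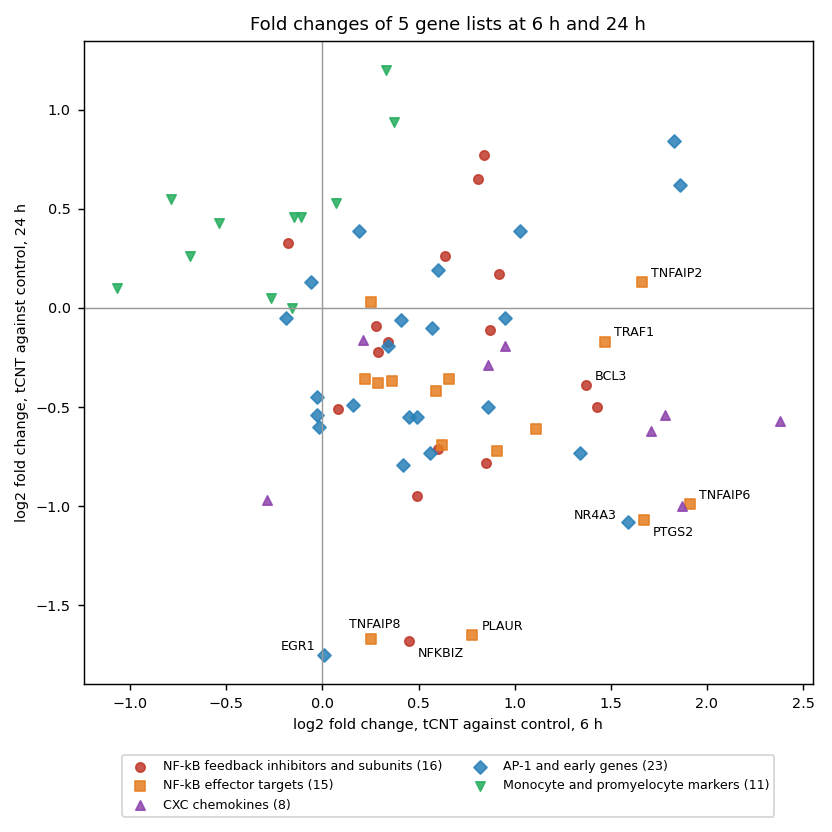
Log2 fold change of tCNT against control at 6 h (horizontal axis) and 24 h (vertical axis) for each measured member of 5 gene lists; the number of members is in brackets. Most points of the NF-kB, CXC chemokine and early gene lists lie right of 0 and below 0, and all 11 monocyte and promyelocyte markers lie at or above 0 at 24 h.

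Single samples carried much of this pattern. Without tCNT 6 h replicate 2 the 6 h medians were 0.52 for the feedback list, 0.48 for the effectors, 0.50 for CXC chemokines and 0.04 for the cytokines, and without control 6 h replicate 4 they were 0.86, 0.87, 1.95 and 1.06. Without tCNT 24 h replicate 2 the 24 h medians were 0.16 for the feedback list, -0.03 for the effectors, 0.10 for CXC chemokines, and 0.02 for both the cytokines and the early genes. The 24 h medians thus lay between -0.03 and 0.16 without that sample. Replicate 1 was also below every control at 24 h in the list means of effectors (11.52 against 11.65), cytokines (8.42 against 8.47) and early genes (10.43 against 10.62). In the feedback and CXC lists it was within the range of the controls. The 6 h medians of the feedback, effector and CXC lists were 0.48 or more without any 1 sample. Replicate 2 of tCNT at 24 h shares its surface marks with control 24 h replicate 6. Leaving out both gave 0.22, -0.04 and 0.11 for the feedback, effector and CXC lists. With columns 20 or 40 apart as a random block, a fit whose consensus correlation was 0.722, the 6 h medians were 0.67, 0.85 and 1.99 and the 24 h medians -0.16, -0.22 and 0.08. The part of the shared columns in these medians was not tested.

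Markers of immature myeloid cells stood opposite to the inflammatory lists. Of 11 monocyte and promyelocyte markers, 3 were above 0 at 6 h and 11 at 24 h, where 50.3% and 54.2% of all genes were. The medians were -0.16 and 0.46, and none had an unadjusted p under 0.05. A mean under 8, near the low end of the scale, was found for 4 of the 11. For 8 of the 11 the sign turned from below to above 0, as it did for 23.9% of all genes. The list mean was 10.34, 9.19 and 10.19 in the tCNT samples of 6 h, against 9.37, 10.40 and 10.71, and 9.86, 11.10 and 9.84 at 24 h, against 9.00, 9.77 and 10.55. Replicate 2 was again the sample apart, low at 6 h and high at 24 h, and without it the 24 h median was 0.10. In that sample MYB, the transcription factor of dividing progenitors, was at 13.82, against 11.82 and 10.45 in the other tCNT samples of 24 h and 11.02 to 13.59 in the controls. CTSG, the granule protease cathepsin G, was at 13.37, against 10.70 and 9.85. The proliferation list had a mean of 12.70 in the same sample and 9.95 and 9.80 in the other two, and its medians of -0.39 at 6 h and 0.14 at 24 h became 0.06 and -0.73 without the replicate 2 of each time. In bulk RNA, fewer cells of a type and less RNA per cell cannot be told apart.

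Outside these lists, most groups stood near all genes. Median log2 fold changes at 6 h and 24 h were 0.15 and -0.06 for 17 NRF2 antioxidant targets, 0.01 and -0.04 for 12 inflammasome genes, 0.02 and 0.06 for 15 Toll-like receptors and adaptors, and -0.03 and 0.01 for 21 interferon-stimulated genes. The interferon median at 6 h ranged from -0.28 to 0.41 when single samples were left out, the latter without tCNT replicate 2, and the NRF2 median at 24 h from -0.24 to 0.18. Scavenger and phagocytic receptors, through which macrophages bind particles, had 2 of 16 members above 0 at 6 h and 10 of 16 at 24 h, with medians of -0.15 and 0.19. Cholesterol synthesis enzymes had 3 of 12 above 0 at both times and medians of -0.35 and -0.24. HMGCS1, which makes the precursor of mevalonate, was at 10.44, 11.44 and 12.94 at 6 h against 12.03, 12.61 and 13.15, a log2 fold change of -0.97 ± 0.37. Metallothioneins and zinc transporters, which answer to metal ions, had 1 of 10 above 0 at 6 h and 3 of 10 at 24 h, with medians of -0.23 and -0.26. Without tCNT 24 h replicate 1 their 24 h median was 0.26, and without replicate 2 it was -0.55. Heat shock chaperones had medians of -0.01 and -0.19.

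Lysosomal genes had 16 of 21 members above 0 at 6 h with a median of 0.12, and 9 of 21 at 24 h with a median of -0.07. HEXA, CTSB and MCOLN1 had an unadjusted p under 0.05 at 6 h, all higher (3.86% of all genes). HEXA, a subunit of the ganglioside-cleaving hexosaminidase, was at 13.37, 13.01 and 13.68 against 12.44, 12.79 and 13.09, a log2 fold change of 0.53 ± 0.22. CTSB, the protease cathepsin B, differed by 0.75 ± 0.36, and MCOLN1, the calcium channel of the lysosomal membrane, by 0.74 ± 0.30. At 24 h the 3 differed by 0.42 ± 0.22, 0.48 ± 0.36 and -0.12 ± 0.30.

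Named by the rule set out under the processing, the transcripts with the lowest p above controls at 6 h were led by CHD2, a chromatin remodeller. It was at 11.27, 11.36 and 11.90 in the tCNT samples, against 10.29, 10.66 and 11.11, and the groups did not overlap. Its log2 fold change was 0.84 ± 0.20 with an adjusted p of 0.546 by limma, and at 24 h it was -0.13 ± 0.20. The others were URGCP, NF1, TXNL4B, DRG2, SH2D2A, STX11, GPATCH8, EMC10 and LILRA1. NF1, the GTPase-activating protein of RAS, was at 9.56, 9.24 and 10.70 against 8.60, 9.00 and 9.32, and replicate 3 was well apart. LILRA1, an activating immunoglobulin-like receptor of myeloid cells, was at 8.81, 9.28 and 9.46 against 7.96, 8.35 and 8.74, with no overlap. STX11, a syntaxin of secretory granule release, was at 10.85, 10.30 and 9.99 against 8.84, 9.10 and 10.28. SH2D2A, a T-cell adaptor protein, was at 10.99, 9.83 and 8.61 against 7.70, 8.63 and 9.27, and its adjusted p was 0.0266 by limma without replicate 3.

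Below controls at 6 h stood KLHL12, IFTAP, EIF3KP1, TCF12, ZCCHC7, PCYOX1L, ZNF99, SUCLG1, EEIG2 and RAE1. KLHL12, the adaptor of a ubiquitin ligase that enlarges COPII transport vesicles, was at 10.69, 11.57 and 11.36 against 11.75, 11.82 and 12.34. Its log2 fold change was -0.70 ± 0.15 with an adjusted p of 0.404 by limma. TCF12, a basic helix-loop-helix factor, was at 11.62, 11.87 and 12.78 against 12.40, 13.07 and 13.39, with a fold change of -0.92 ± 0.25. RAE1, an mRNA export factor, was at 12.06, 12.09 and 11.99, just under its lowest control of 12.16. SUCLG1, a subunit of succinate-CoA ligase of the citric acid cycle, was at 13.16, 12.12 and 12.69 against 13.07, 13.30 and 13.61. For TCF12 and SUCLG1 the groups overlapped, and for KLHL12 and RAE1 they did not.

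At 24 h the lowest p below controls was that of VCAM1, the adhesion receptor for integrin alpha4beta1 and an NF-kB target in endothelium. Its log2 values were 7.25, 7.86 and 7.53, against 8.25, 8.65 and 9.35, and the groups did not overlap. The log2 fold change was -1.14 ± 0.27 with an unadjusted p of 0.000151 and an adjusted p of 1 by limma, and it lay between -1.32 and -0.98 when each sample was left out. At 6 h the fold change was -0.36 ± 0.27. With columns 20 or 40 apart as a block the 24 h value was -0.62. The others below controls were CLEC19A, SKIL, TOMM70, EIF2A, YWHAQ, UAP1, ATF4, NFKBIZ and PTGER4. ATF4, the factor of the integrated stress response, owed its fold change of -2.22 ± 0.88 mainly to replicate 1 at 9.30, with 14.35 and 13.61 in the other two and 12.75 to 15.60 in the controls. PTGER4, a receptor of prostaglandin E2, was at 13.23, 13.20 and 13.83, all under the lowest control of 13.85.

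Above controls at 24 h stood SP9, TADA3, ZNF688, IRX5, ANKRD54, TUBB3P2, RNASE1, SH2B2, PRR32 and RERE. TADA3, a subunit of histone acetyltransferase complexes, was at 14.22, 14.36 and 13.93 against 13.30, 13.55 and 13.78, with a log2 fold change of 0.63 ± 0.19. RERE, a nuclear receptor corepressor, was at 9.02, 8.77 and 8.97 against 8.10, 8.38 and 8.71. RNASE1, a secreted ribonuclease, was at 9.24, 10.93 and 9.28 against 8.47, 8.79 and 9.07, with replicate 2 apart. None of the 3 overlapped with its controls, and the adjusted p was 1 by limma for each.

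With both times pooled, the transcripts above controls were POLL, EMC10, VEGFB, DOK3, XXYLT1, BAX, GMEB2, PHYKPL, GPR107 and HMGB3P22. EMC10, a subunit of the complex that inserts proteins into the ER membrane, was above every control at both times. Its values were 14.33, 14.18 and 14.50 at 6 h against 13.34, 13.69 and 13.99, and 14.27, 14.09 and 14.48 at 24 h against 13.71, 13.85 and 14.05. The pooled log2 fold change was 0.54 ± 0.13 with an adjusted p of 0.781 by limma. VEGFB, a growth factor of the VEGF family, was also above every control at both times. It was at 14.11, 13.15 and 13.12 at 6 h against 12.18, 12.26 and 13.03, and at 13.10, 12.95 and 13.94 at 24 h against 12.23, 12.54 and 12.80. Its pooled fold change was 0.93 ± 0.26.

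BAX, the pore-forming protein of mitochondrial apoptosis, was at 13.62, 12.98 and 13.10 at 6 h against 12.52, 12.88 and 13.15, and at 13.46, 13.10 and 13.23 at 24 h against 12.68, 12.83 and 12.95. The 24 h groups did not overlap, and the pooled fold change was 0.41 ± 0.12. The median of the 13 p53 targets that BAX belongs to was 0.17 at 6 h and 0.11 at 24 h. POLL, DNA polymerase lambda, had a pooled fold change of 0.68 ± 0.17, and DOK3, an adaptor that restrains Fc receptor signalling, 0.44 ± 0.13. Below controls with both times pooled stood ZCCHC7, SINHCAF, NIPA2, OSBPL3, AGPAT5, MYO5A, FFAR2, LTV1, PPA1 and USP14. SINHCAF, a subunit of the SIN3 corepressor, was at 11.43, 10.82 and 11.20 at 6 h and 11.46, 11.66 and 10.87 at 24 h, with control medians of 11.82 and 11.83. FFAR2, a receptor of short-chain fatty acids, had a pooled fold change of -0.65 ± 0.23.

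The highest VEGFB values at the 2 times were those of tCNT 6 h replicate 1 and tCNT 24 h replicate 3. These were also the 2 tCNT samples among the 12 in columns 1 to 4, 21 to 24 and 41 to 44, which hold no control and in which 5 of 21 actin cytoskeleton genes did not overlap with the other samples. The 5 were ACTN4, CFL1, PFN1, MYH9 and TLN1, the last with the widest gap at 12.88 to 13.85 against 8.77 to 10.63, while ACTB and ACTG1 overlapped. The actin list mean was 14.35 to 14.93 in those 12 and 13.53 to 14.34 in the other 36. The 12 samples were set apart after the data were seen, so the gap in actin genes describes them and is no test. The share of all genes with such a gap was not computed. Without the 12 samples the pooled fold changes were 0.62 for VEGFB, 0.51 for EMC10, 0.32 for BAX and 0.63 for POLL. With columns 20 or 40 apart as a block they were 0.54 for VEGFB, 0.27 for EMC10, 0.19 for BAX and 0.38 for POLL. The part of these samples in the differences was not tested further.

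**Figure D3:**
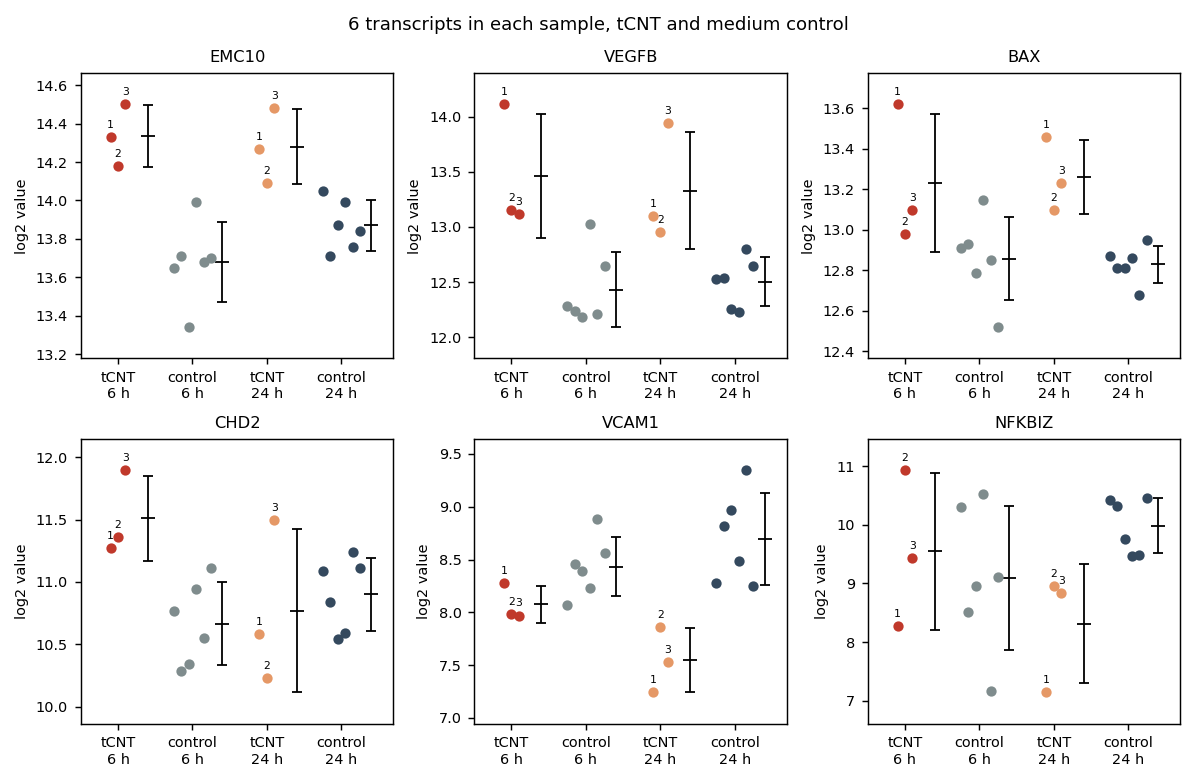
Log2 value (vertical axis) of 6 transcripts in each sample, by group (horizontal axis); numbers beside the tCNT points are replicates, and bars give the group mean ± SD (n = 3 tCNT, n = 6 control). EMC10 and VEGFB were above every control at both times, CHD2 at 6 h alone, and VCAM1 and NFKBIZ were below every control at 24 h alone.

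Few transcripts stood in opposite directions at the 2 times when each time had to reach an unadjusted p under 0.05. There were 5 such genes (0.0245%), against 29 with the same sign at both (0.142%). SYCN was above controls at 6 h and below at 24 h (0.00490% of genes), and CP, FAM245A, H3C12 and ZNF99 were below at 6 h and above at 24 h (0.0196%). Of these only H3C12 and ZNF99 had a mean of 8 or more. ZNF99, a zinc finger gene of a large family with similar sequences, was at 8.63, 8.77 and 9.69 at 6 h against 9.38, 9.54 and 10.27, and at 9.92, 9.74 and 10.32 at 24 h against 9.06, 9.45 and 10.31. Its fold changes of -0.70 ± 0.20 and 0.41 ± 0.20 differed by 1.11 ± 0.28, with an adjusted p of 1 by limma, and the sign turned when all features of the gene were averaged. H3C12, a histone H3 gene with many near-identical copies, was at 11.83, 11.05 and 11.01 at 6 h against 11.32, 11.76 and 13.52, and at 12.60, 11.88 and 13.45 at 24 h against 11.36, 11.72 and 12.47. Groups overlapped at both times for both genes, and signals of near-identical copies cannot be separated.

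Of the 29 genes with the same sign, 28 were above controls and 1, SINHCAF, below. With a mean of 8 or more there were 20 above controls, among them EMC10, VEGFB, BAX and POLL. CASP9, the initiator caspase of the mitochondrial pathway, was at 14.56, 13.71 and 14.50 at 6 h with control 6 h replicate 6 at 14.62, and its fold changes were 0.84 ± 0.41 and 1.07 ± 0.41. QSOX1, a secreted sulfhydryl oxidase, had fold changes of 0.75 ± 0.34 at both times, and its 6 h values of 13.37, 12.72 and 12.74 were above all controls. GZMB and NKG7, cytotoxic granule genes that also mark lymphocytes, had 0.66 ± 0.24 and 0.53 ± 0.24, and 0.79 ± 0.34 and 0.69 ± 0.34. The lymphocyte list as a whole had 6 of 9 members above 0 at each time, with medians of 0.35 and 0.28, and a list mean of 8.40 to 8.65 in the tCNT samples of 6 h against 7.77 to 8.62 in the controls. The median was 0.05 at 6 h without tCNT replicate 2 and -0.03 at 24 h without tCNT replicate 1, and 6 of the 9 members had a mean under 8. Its T-cell member CD3D had fold changes of -0.03 and 0.28, and the part of other cells in these values was not tested.

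Without a p limit, 43.9% of all genes had fold changes of opposite sign. Over the 20399 genes the fold changes at 6 h and 24 h correlated at 0.37, across genes that are not independent. What lies behind this correlation was not tested. Of 458 genes at least 2-fold from controls at 6 h, 353 had the same sign at 24 h, and of 615 at 24 h, 534 had the same sign at 6 h.

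A set of transcripts was called for tCNT at 6 h only when replicate 2 was left out, and most of those transcripts followed the columns of the table. Without that replicate 19 genes had an adjusted p under 0.05 by limma, 15 lower and 4 higher, and all 15 lower genes had a mean of 8 or more. PHF3, a regulator of RNA polymerase II elongation, was at 9.04 and 8.35 in tCNT 6 h replicates 1 and 3 and at 11.83 in replicate 2, against 10.95, 11.48 and 11.92 in the controls. It was just as low in Fullerene 6 h replicates 1, 2 and 3, at 9.27, 8.19 and 8.42, and between 10.79 and 12.01 in the other 43 samples. Those 5 low samples fill columns 3, 23 and 43 and columns 15 and 35, which lie 20 or 40 apart.

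UBE2V2, a partner of the ubiquitin-conjugating enzyme UBC13, was at 8.45 and 8.29 in the 2 tCNT samples, 8.40 to 9.21 in the Fullerene samples and 10.21 to 11.84 in the other 43. PGLS, of the pentose phosphate pathway, was at 10.38 and 10.30 against 12.51 to 13.97 in the other 43, and GOLGA5, a Golgi tether, at 9.63 and 8.19 against 10.69 to 12.62. The others were PITPNB, TRA2A, CDK12, BTG3, CLCN3, SGPL1, KLHL12, UHMK1, PKNOX1, RPLP2 and ZNF433, and HNF4G, LINC00517, LINC00592 and LRRC43 were higher. For 15 of the 19 the 5 samples did not overlap with the other 43. The 19 genes were called on the 2 tCNT samples among these 5, which favours such a gap. The share of all genes with this gap was not computed. With all 3 tCNT samples, PHF3 had a log2 fold change of -1.72 ± 0.38 and an adjusted p of 0.404 by limma, and without replicate 2 it had -2.78 ± 0.27 and 2.19e-07. At 24 h it was at -0.30 ± 0.38. PHF3 was thus low in every sample of these columns, those labelled Fullerene among them, and not in tCNT 6 h replicate 2 outside them. The part of tCNT in these values was not tested.

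**Figure D4:**
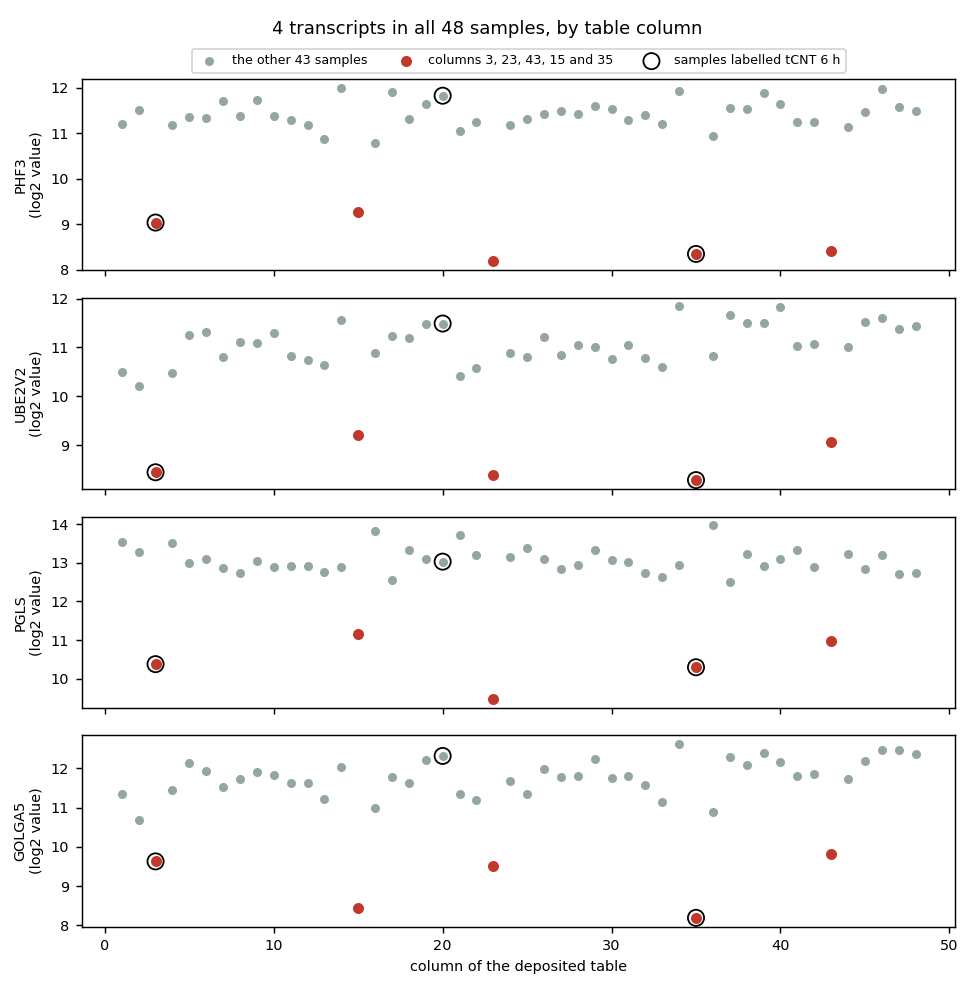
Log2 value (vertical axes) of PHF3, UBE2V2, PGLS and GOLGA5 in all 48 samples, by column of the deposited table (horizontal axis). The 5 samples in columns 3, 23, 43, 15 and 35 lie below the other 43 in each panel, and of the 3 samples labelled tCNT 6 h, ringed, the 1 in column 20 lies with the others.

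Leaving out replicate 3 of tCNT at 6 h gave 23 genes and leaving out replicate 1 gave 4, and 0 genes were shared with the 19 or between the 2 sets. Of the 23, 21 had a mean under 8, and all 4 did, near the low end of the scale. At 24 h no gene was called without any 1 sample.

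Set against the other 5 materials of the same time, tCNT had 0 genes (0% called) with an adjusted p under 0.05 by limma at 6 h and at 24 h, with 802 genes (3.93%) and 332 (1.63%) at an unadjusted p under 0.05. The lowest adjusted p at 6 h was 0.274 by limma, shared by several genes. Among them were FOSB, an AP-1 subunit, with a log2 fold change of 1.07 ± 0.22 against the other materials, SH2D2A with 1.36 ± 0.30 and KLHL12 with -0.61 ± 0.14. KLHL12 was not low in tCNT alone. Fullerene 6 h replicates 1, 2 and 3 were at 11.34, 10.99 and 11.27, and the 43 samples outside the shared columns at 11.52 to 12.34. FOSB was at 8.89, 8.32 and 7.10 in the 3 tCNT samples, and without replicate 3, the low one, its difference was 1.55 ± 0.23 with an adjusted p of 0.00166 by limma. Its mean over the 18 samples was 7.29, near the low end of the scale. Most of the genes called without that replicate also had a mean under 8. The NF-kB feedback and effector lists had medians of 0.40 and 0.47 against the other materials at 6 h, with 14 of 16 and 14 of 15 members above 0 where 49.9% of all genes were, and -0.10 and -0.31 at 24 h, with 7 of 16 and 3 of 15 above 0 where 53.1% were. Without replicate 2 of each time these medians were 0.24 and 0.26 at 6 h and 0.32 and 0.11 at 24 h, so the 24 h direction turned. CXC chemokines had 1.13 at 6 h, with all 8 members above 0, and 0.13 at 24 h. The monocyte and promyelocyte markers had -0.15 and 0.35. Without replicate 2 of each time the CXC medians were 0.29 and 0.63 and the marker medians 0.17 and -0.08. None of these differences between tCNT and the other materials passed the adjusted test, which does not show that they act alike.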

How the data were processed

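Three-dye arrays gave 1 log2 value per feature and sample, deposited by the authors in a single table, and the submitters' processing notes name R 2.3 and limma. Their background correction and normalisation are not given in the sources used here. Sample medians of the deposited log2 values lay between 7.68 and 7.70, and no depth applies: the number of arrays limits the precision. Of 45220 features, 35268 had 1 gene symbol and 9952 were unnamed here. The feature of highest mean was kept per gene, giving 20399 genes, and symbols were updated through RefSeq.

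All 48 samples entered 1 limma 3.58.1 fit (R 4.3.3) on 14 groups with dye as a term and 32 residual degrees of freedom, with Benjamini-Hochberg adjustment over all genes. Errors of fold changes are SE. Named genes were, per comparison and direction, the 10 of lowest p with a mean of at least 8, no sample close to the top of the scale and every tCNT sample deviating from the controls of its dye in the direction of the fold change. In addition, list members and genes called in alternatives were named after their values were seen. The members, lists and named-gene rule were chosen with earlier results of these data known. The fit was tested on simulated data with independent samples.

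Surface marks were the median over windows of 11 by 11 spots. Samples with the same replicate number were checked for pairing by the correlation of their deviations from the group means, which was 0.092 on average and -0.135 at the lowest for title numbers, and 0.036 and -0.573 for the letters of the sample codes, so no pairing was used. Alternatives covered the normalisation, dim genes, the feature per gene, blocks, controls and each sample left out.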

Additional observations from a re-analysis of the deposited data

Results flagged for a closer look

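A sample was taken as apart when its gap to the nearest other control, divided by the range of the 6 controls, exceeded Dixon's critical value for 6 samples. Of 310 control groups examined 28 were apart in this way, and chance flags about 1 in 20. Control 6 h replicate 5 accounted for 13 of the 28 and was 1 of 3 samples here with strong surface marks. It was low for ATF4 at 10.82, CD68 at 12.08, HNF4G at 6.46, MYO5A at 6.70, PFN1 at 11.65, PLAUR at 8.99, RAE1 at 12.16 and TNFAIP8 at 7.48. It was high for ANKRD54 at 10.31, CDK12 at 10.30 and KLHL12 at 12.34. Its list means were low for heat shock chaperones, 12.54 with the nearest control at 13.32, and for cholesterol synthesis, 10.44 against 11.54.

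Control 6 h replicate 4 was high for FOSB at 7.62, NR4A3 at 11.08 and PTGS2 at 13.65, and for the mean of the TNF and IL6-type cytokines, 9.99 with the nearest control at 8.66. Control 6 h replicate 3 was low for TXNL4B at 8.97, and control 6 h replicate 6 for ACTB at 14.22.

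At 24 h, control replicate 6 was low for ATF4 at 12.75, SKIL at 8.08 and the inflammasome mean at 10.23, and high for the mean of cytokine and chemokine receptors at 10.90. Control replicate 5 was high for LILRA1 at 9.02 and ZNF688 at 10.62, and control replicate 2 for IL6 at 9.85. The NRF2 target mean was high in control replicate 4 at 13.08, and the cholesterol efflux mean low in control replicate 1 at 11.95.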

How the results depend on the processing

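At 6 h the count of 0 genes became 1 with the mean of all features of a gene. This was RUFY1, with a log2 fold change of -1.10 and an adjusted p of 0.0324 by limma. The count was 23 without the samples of strong surface marks and 10 without columns 1 to 4, 21 to 24 and 41 to 44. The marked samples were tCNT 6 h replicate 3, tCNT 24 h replicate 1 and control 6 h replicate 5. Those columns hold tCNT 6 h replicate 1, so both settings left out 1 of the 3 tCNT samples of 6 h. A mean under 8 was found for 22 of the 23 genes and 7 of the 10. Leaving out 1 sample at a time gave 0 to 23 genes at 6 h, with 4, 19 and 23 without tCNT replicates 1, 2 and 3, 0 to 10 pooled and 0 to 3 for the difference between times, the 10 and the 3 without tCNT 6 h replicate 2. Against the other 5 materials at 6 h it gave 5 to 46 genes, and 43 and 1 without the samples of surface marks and without those columns. With the mean of all features ZNF99 turned to 1.13 at 6 h and -0.90 in the difference. At 24 h the count was 0 under each alternative run. The replicate block by title number gave 0 calls with a consensus correlation of -0.0377, and the block by code letter 0 calls. The column-based alternatives, the surface correction and the samples left out for marks or actin genes were chosen after seeing the data. The cause of these moves was not tested.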
